A study of Mus musculus with 12 samples.

Results

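The replication-dependent histone genes encode the histones H1, H2A, H2B, H3 and H4 that package newly copied DNA. They were taken as the protein-coding genes of chromosomes 13, 3 and 11 (mouse build GRCm38, also called mm10) whose symbols begin with Hist1h, Hist2h or Hist3h. This gave 66 of 21755 protein-coding genes, with 54 on chromosome 13, 10 on chromosome 3 and 2 on chromosome 11. By type they were 6 H1, 18 H2A, 18 H2B, 12 H3 and 12 H4 genes. Hist4h4, an H4 gene on chromosome 6, lay outside this choice.

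H3K27me3 was measured by ChIP-seq in iMEF cells, an immortalized line of mouse embryo fibroblasts. All groups lacked endogenous Ash2l and lived on a lentiviral FKBP12F36V-tagged human ASH2L that the PROTAC compound dTAG degrades. The 8 H3K27me3 libraries were 2 each from untreated cells and from cells given dTAG for 16 h, 24 h or 48 h, and the 4 input libraries were 2 each from untreated cells and from cells given dTAG for 48 h. The results came from a single list of 101389 sites found across all samples, which holds positions and no value for any library. Untreated and dTAG-treated cells could therefore not be compared from this list, there was no replicate error, and the number of reads behind a site is not given. The study also provides a list of sites changed at each time against untreated cells, which was not used here. The study worked with single-cell-derived clones and names 1 of them, NG3, for its histone-mark ChIP-seq, so a site describes that line. The list held no measurement with which the cell type could be checked.

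Replication-dependent histone genes sit in clusters, have no introns as a rule, and are transcribed in S phase, when the cell needs histones for new chromatin. Their mRNAs end in a conserved stem-loop in place of a poly(A) tail, which the stem-loop binding protein Slbp recognizes. H3K27me3 is placed by Polycomb repressive complex 2 and is a mark of silenced developmental genes, often at CpG islands (CGIs).

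The clusters formed 6 spans when neighbouring members more than 100 kb apart were separated. On chromosome 13 these are called Hist1 A (chr13:21715763-21837530, 18 members), Hist1 B (chr13:22035164-22043676, 5 members), Hist1 C (chr13:23531050-23764406, 29 members) and Hist1 D (chr13:23933773-23934851, 2 members). Hist2 (chr3:96219865-96270132) held 10 members and Hist3 (chr11:58948920-58956830) held 2.

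The promoters of 4 members show the range found, from a promoter wholly under a site to promoters in site-free sequence. They are RefSeq sequences on GRCm38.p6, from 250 bases before to 50 after the transcription start site (TSS). Capitals mark the TATA box (TATAAA), the CCAAT box and the octamer (ATTTGCAT) on either strand. All 300 bases of the Hist3h2ba promoter and 47 bases of the Hist3h2a promoter lay under a site, against 0 bases for Hist1h1e, the member closest to a site outside Hist3, and for the testis gene Hist1h2ba.
Hist3h2ba promoter (chr11:58948661-58948960, + strand): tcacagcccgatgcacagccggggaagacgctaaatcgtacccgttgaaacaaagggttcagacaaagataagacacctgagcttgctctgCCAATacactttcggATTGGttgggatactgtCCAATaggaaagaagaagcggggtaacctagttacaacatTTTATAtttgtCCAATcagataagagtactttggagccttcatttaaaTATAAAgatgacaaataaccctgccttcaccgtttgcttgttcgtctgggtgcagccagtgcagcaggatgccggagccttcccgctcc
Hist3h2a promoter (chr11:58954435-58954734, + strand): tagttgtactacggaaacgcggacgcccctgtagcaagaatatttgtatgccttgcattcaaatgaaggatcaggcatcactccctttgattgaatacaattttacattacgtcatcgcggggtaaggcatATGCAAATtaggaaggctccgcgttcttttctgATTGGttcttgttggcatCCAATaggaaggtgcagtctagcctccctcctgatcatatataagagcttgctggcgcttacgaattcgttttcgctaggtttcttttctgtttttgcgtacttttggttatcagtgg
Hist1h1e promoter (chr13:23622509-23622808, - strand): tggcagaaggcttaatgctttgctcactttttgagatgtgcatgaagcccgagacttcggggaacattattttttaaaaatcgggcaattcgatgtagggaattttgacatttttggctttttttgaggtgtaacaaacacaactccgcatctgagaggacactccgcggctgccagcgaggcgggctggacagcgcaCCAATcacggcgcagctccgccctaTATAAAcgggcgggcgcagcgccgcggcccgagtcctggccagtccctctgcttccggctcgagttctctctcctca
Hist1h2ba promoter (chr13:23934107-23934406, - strand): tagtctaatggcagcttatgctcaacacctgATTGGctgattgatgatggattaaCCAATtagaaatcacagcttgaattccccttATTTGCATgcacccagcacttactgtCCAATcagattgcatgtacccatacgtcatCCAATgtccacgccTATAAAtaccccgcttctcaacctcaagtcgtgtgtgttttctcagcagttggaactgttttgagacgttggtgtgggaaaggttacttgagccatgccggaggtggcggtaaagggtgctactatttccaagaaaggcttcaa

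A site lay within 1 kb of a TSS at 2 of the 66 members (3.03%), against 26.9% of all protein-coding genes. Of the 11 members with at least 95% of nearby 75-base words unique in the genome, 2 had one (18.2%), against 28.8% of all such genes. Scored by the centre of a site, the count was 0 of 66 (all genes 18.5%). Both members with a site were the Hist3 genes on chromosome 11, Hist3h2ba (an H2B gene, distance 0 bp) and Hist3h2a (an H2A gene, 204 bp). None of the 64 members on chromosomes 13 and 3 had one, whereas 23.4% of all protein-coding genes of chromosome 13, 21.3% of those of chromosome 3 and 30.4% of those of chromosome 11 did. Members of a span share their surroundings, so these are counts over 6 neighbourhoods more than over 66 separate genes, and no test was run.

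With wider windows the members approached the other genes. A site lay within 5 kb of 4 members (6.06%; all genes 38.3%), within 10 kb of 12 (18.2%; all genes 46.2%) and within 50 kb of 44 (66.7%; all genes 72.2%). The median distance from a member to its nearest site was 26848 bp, with a range of 0 to 78671 bp. It became 79722 bp when sites under 1000 bp were left out, and was 17192 bp over the 11 members with mostly unique sequence (at least 95% of 75-base words found once in the genome). Many members share a nearest site, so no interval is given for the median. Over all protein-coding genes and the full list of sites the median was 13192 bp and the quartiles were 567.5 and 58723.5 bp. The most remote protein-coding gene lay 4904951 bp from a site.

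**Figure D1:**
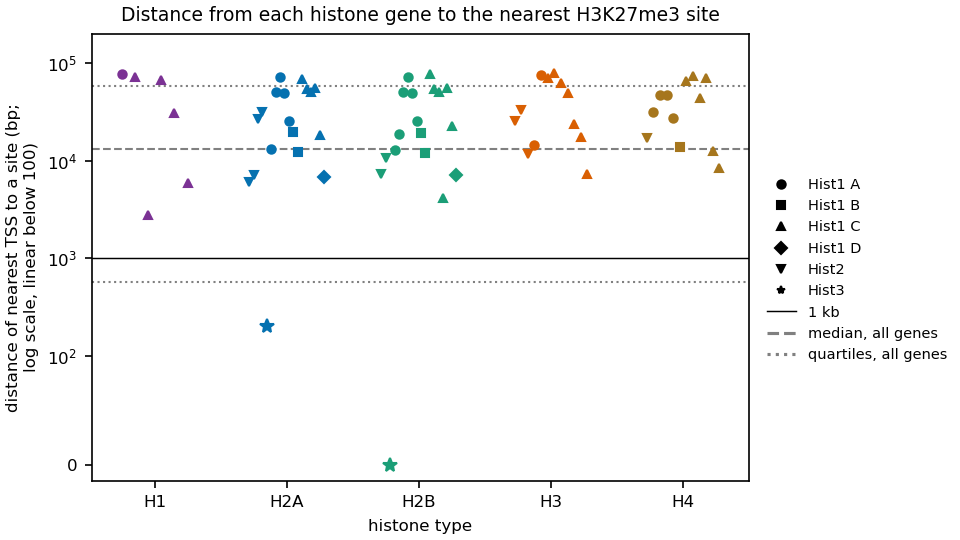
Distance in bp from the nearest TSS of each histone gene to a site (log scale, linear below 100 bp), by histone type, with the span given by the marker; grey lines are the median and quartiles of all protein-coding genes and the black line is 1 kb. The 2 Hist3 genes, at 0 and 204 bp, are the only points below the 1 kb line, and the other 64 lie between 2773 and 78671 bp.

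By type, the linker histone (H1) genes had a median distance of 49115.5 bp. The H2A genes had 26192.5 bp, the H2B genes 21143.5 bp, the H3 genes 29175 bp and the H4 genes 37787 bp. The ranges of the 5 types overlapped.

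H1 histones bind the DNA between nucleosomes, and their genes lay apart from each other in Hist1 A and Hist1 C. Hist1h1e lay 2773 bp from a site and Hist1h1a 5975 bp. Hist1h1c lay 30833 bp away, the testis form Hist1h1t 67398 bp, Hist1h1d 72069 bp and Hist1h1b 77402 bp. Only Hist1h1e among them was within 5 kb of a site. The other member within 5 kb, besides the Hist3 pair, was the H2B gene Hist1h2be at 4207 bp. Its annotated gene body ran from 23583670 to 23621124 on chromosome 13, and all 3 of its annotated TSSs lay within the Hist1h1e gene, which it overlaps, so both distances refer to the same site. The testis genes Hist1h2ba and Hist1h2aa, which form Hist1 D, lay 7112 and 6806 bp from the nearest site. Their products are germ-cell H2B and H2A forms, and no site lay within 1 kb of their TSSs or of that of Hist1h1t, as at all other members outside Hist3.

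Hist1 A was 121768 bp long and 0% of it lay under sites. Its 18 members stood in a site-free stretch of 156123 bp, from a 354-bp site on the left to a 566-bp site on the right. Of the 101285 intervals between neighbouring sites in the genome, 3.03% were as long or longer, and the median interval was 1069 bp. Each interval counts once whatever its length, whereas a stretch that holds given genes is more likely to be a long one. This share and those below therefore do not say how rare such a stretch is around genes. Over all protein-coding genes the upper quartile of the distance to a site was 58723.5 bp. Hist1 B (8513 bp) was also 0% covered, and its 5 members stood in a site-free stretch of 39928 bp (7.81% of intervals as long or longer). Hist1 C was 233357 bp long and 0.324% covered. Its members were divided between stretches of 159949 bp (16 members; 2.95% of intervals as long or longer) and 141224 bp (13 members; 3.30%). Hist1 D (1079 bp) and Hist2 (50268 bp) were 0% covered, within site-free stretches of 14684 bp (13.7%) and 66771 bp (5.74%).

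Together the 5 spans on chromosomes 13 and 3 measured 414985 bp, of which 755 bp (0.182%) lay under 2 sites. With Hist3 the 6 spans measured 422896 bp and 1.49% lay under sites. This share depends on where spans are divided, and was 9.88% when only members over 300 kb apart were separated, which takes the intervals from Hist1 A to Hist1 B and from Hist1 C to Hist1 D into the spans. The 200-kb flanks of the 6 spans averaged 22.1% covered, a mean that includes the Hist3 flanks (30.0% and 71.5%) and counts shared sequence more than once. Of the chromosomes, 5.88% of chromosome 13, 3.03% of chromosome 3 and 11.2% of chromosome 11 was covered. On the left and right respectively the flanks of Hist1 A were 4.88% and 15.0% covered, those of Hist1 B 15.0% and 2.52%, those of Hist1 C 10.4% and 26.9%, those of Hist1 D 20.9% and 21.02%, and those of Hist2 10.4% and 37.2%. Each of these 10 flanks of 200 kb had a higher covered share than its span, although the left flank of Hist1 A and the right flank of Hist1 B were below the share of chromosome 13. Flanks as long as the span itself gave 3.53% and 2.87% for Hist1 A, both below the share of chromosome 13. They gave 0% on both sides for Hist1 B and Hist1 D, as in the spans, 13.7% and 32.4% for Hist1 C, and 41.2% and 47.7% for Hist2. Some flanks overlap, since Hist1 A and Hist1 B share the same interval between them, as do Hist1 C and Hist1 D.

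**Figure D2:**
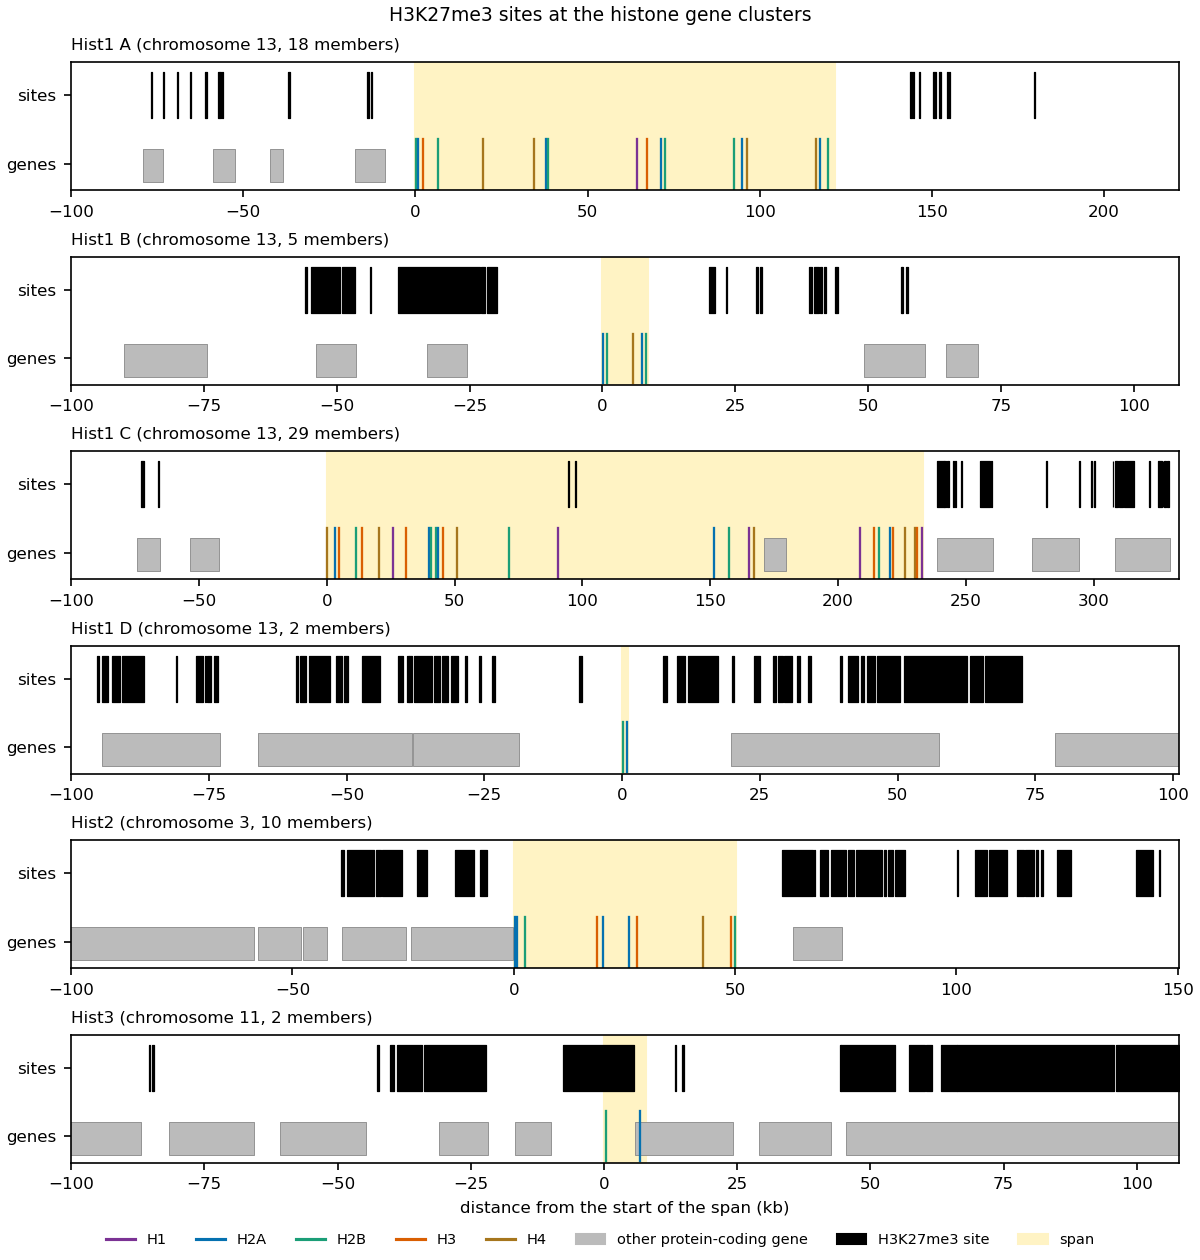
Sites (black) and genes along the 6 spans (yellow) and 100 kb on either side, by distance in kb from the start of each span; coloured ticks are histone genes by type, grey bars are other protein-coding genes, and a site is drawn at least as wide as a line. The yellow areas of Hist1 A, Hist1 B, Hist1 D and Hist2 hold no site, Hist1 C holds 2, and 1 wide site runs into Hist3.

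Sites resumed at some distance outside the clusters. From the span edge to the first site on the left and right, the distances were 12539 and 21816 bp for Hist1 A, 19842 and 11573 bp for Hist1 B, and 65668 and 5234 bp for Hist1 C. They were 7189 and 6416 bp for Hist1 D and 6133 and 10370 bp for Hist2. Averaged over the 10 edges of these spans, 9.18% of the first 10 kb outside was covered (median 0%), 21.9% of the second 10 kb and 36.6% of the third. Beyond that the values fluctuated, from 6.17% at 80 to 90 kb to 36.4% at 30 to 40 kb. Seen from the TSSs, 0% of the 5 kb on one side and 0.248% of the 5 kb on the other side of the 64 members on chromosomes 13 and 3 was covered. Around all protein-coding genes these bins held the highest values, 15.0% and 14.7%.

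**Figure D3:**
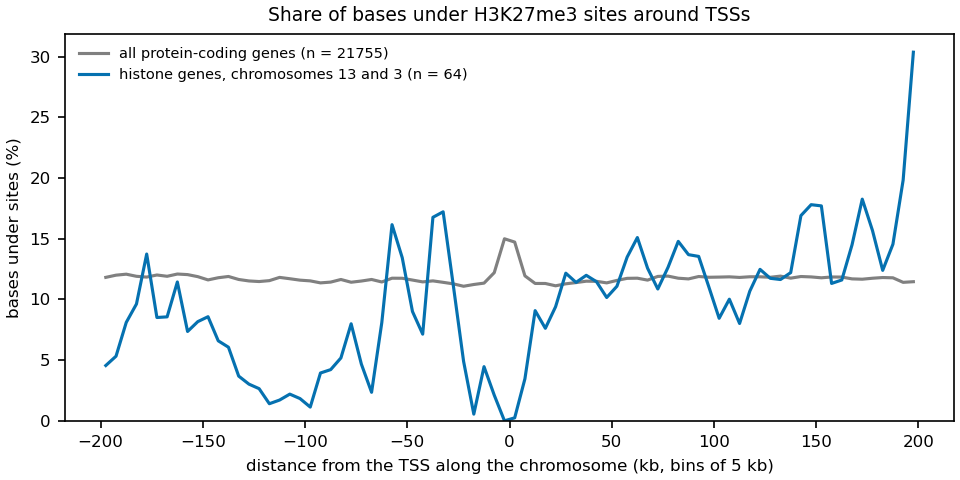
Percent of bases under sites in 5-kb bins up to 200 kb on either side of the TSSs along the chromosome, for all protein-coding genes (grey) and for the 64 histone genes on chromosomes 13 and 3 (blue). The grey line rises to 15.0% at the TSS, where the blue line falls to 0%.

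Pooled over the spans, the genes lying around the clusters differed from the members in this readout. Of 53 protein-coding non-histone genes that overlapped a span or its 200-kb flanks, 25 (47.2%) were scored for a site in the 1-kb window (all genes 26.9%). With sites under 1000 bp left out these were 16 genes (30.2%; all genes 22.4%). By span, with all sites kept, the share ran from 2 of 8 (25%) at Hist1 B to 8 of 12 (66.7%) at Hist1 A. At Hist3, where both members also had a site, 9 of 16 neighbours had one. Beside Hist2, the genes Sv2a, which encodes a synaptic vesicle protein, Bola1, and Fcgr1, a receptor for immunoglobulin G, had a site on a TSS. For Bola1 this was not the TSS next to the cluster. That TSS, at 96219709, lay in the site-free stretch of Hist2 (chr3:96213732-96280502). Prss16, a thymus-specific serine protease, lay under a site of 15283 bp between Hist1 A and Hist1 B. Scgn, a calcium-binding protein of neuroendocrine cells, overlapped a site of 11460 bp beside Hist1 D. Of the olfactory receptor genes to the left of Hist1 A, Olfr1366, Olfr1362, Olfr11 and Olfr1359 had a site on a TSS. The sites overlapping Olfr1362 (203 bp) and Olfr11 (258 and 200 bp) were narrow, the smallest width in the list being 200 bp. Genes without a site within 1 kb included the splicing factor gene Sf3b4 (8243 bp), Otud7b (30086 bp), Vps45 (91962 bp), Abt1 (14190 bp) and Zfp184 (29796 bp). Hfe, an iron-regulation gene and the only other protein-coding gene inside Hist1 C, lay 58787 bp from the nearest site.

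There were 59 gaps between neighbouring members, with lengths from 52 to 58908 bp and a median of 1279 bp, and 57 held no site. The gaps outside Hist3 numbered 58, and 0.244% of their bases was covered. A single one of these held sites, the interval between Hist1h1e and Hist1h2ac (chr13:23622559-23681466, 58908 bp), which is the longest gap and contains no other protein-coding gene. The division at 300 kb raised the sites in gaps from 3 to 57. With sites under 500 bp left out, or with spans divided at 50 kb, which splits Hist1 C at this gap, 1 remained, and neither site of this gap was counted. Its 2 sites were narrow, 396 and 359 bp against a median width of 676 bp over the whole list, and lay 2773 and 5500 bp from Hist1h1e. Neither overlapped a CGI. The first held 3 CpGs, with a GC content of 46.0% and 26.5% of its bases in repeats. The second held 0 CpGs, with a GC content of 44.3% and 60.4% in repeats. Every 75-base word of both occurred once in the genome. The gap of 40353 bp that holds Hfe had no site.

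The middle 150 bases of these 2 sites are shown with CpGs in capitals, because they are the only listed sites inside the Hist1 and Hist2 spans. A stretch of equal length from the middle of the Hist3 site follows.
First site in the Hist1h1e to Hist1h2ac gap (chr13:23625453-23625602, + strand): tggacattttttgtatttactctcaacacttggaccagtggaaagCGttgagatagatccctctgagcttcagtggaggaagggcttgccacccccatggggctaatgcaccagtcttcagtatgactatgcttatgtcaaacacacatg
Second site in the Hist1h1e to Hist1h2ac gap (chr13:23628162-23628311, + strand): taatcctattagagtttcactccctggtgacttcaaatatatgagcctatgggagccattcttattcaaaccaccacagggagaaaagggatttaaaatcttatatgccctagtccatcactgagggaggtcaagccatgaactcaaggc
Site over Hist3h2ba (chr11:58947756-58947905, + strand): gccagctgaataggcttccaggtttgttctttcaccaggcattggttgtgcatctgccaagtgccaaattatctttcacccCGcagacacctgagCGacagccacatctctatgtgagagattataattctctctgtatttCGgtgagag

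Hist3 was the exception among the clusters, although the centre of its site lay more than 1 kb from the TSSs of both genes. A site of 13300 bp (chr11:58941182-58954481) covered Hist3h2ba entirely, extended over the pseudogene Hist3h2bb-ps and ended 204 bp before the TSS of Hist3h2a, so that 70.3% of the span was covered. The site held 244 CpGs, had a GC content of 44.9% and a CpG observed/expected ratio of 0.364, and overlapped a CGI. Of its 75-base words 98.1% occurred once in the genome. From the end of this site the list showed no other for 7802 bp, up to a 217-bp site that lay 5453 bp beyond the end of Hist3h2a, and none of the Hist3h2a gene body was covered. The neighbourhood was rich in sites on both sides, with 30.0% of the left and 71.5% of the right flank covered. To the left, sites of 11557 bp at Btnl10 and 7794 bp at Fam183b were the widest. Trim17 has an annotated transcript that starts at the same base as Hist3h2a, so a site near the one is also near the other.

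Intervals between the Hist1 spans were not alike. Between Hist1 A and Hist1 B (197633 bp) 15 sites covered 15.1%, and between Hist1 C and Hist1 D (169366 bp) 39 sites covered 24.7%. The 1487373 bp between Hist1 B and Hist1 C held 49 sites, which covered 2.95%. Within it a site-free stretch of 1182744 bp contained 35 vomeronasal receptor genes of the Vmn1r family and no member.

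Members resemble one another in sequence, so the number of reads that can be placed uniquely was approximated from the genome. Of the 75-base words (the length of the reads) within 1 kb of a TSS, a median of 83.4% occurred once in the genome for the members (range 0 to 100%), against 99.97% for all protein-coding genes. The medians were 100% for H1, 73.7% for H2A, 74.6% for H2B, 82.0% for H3 and 91.7% for H4. In Hist1h2bq, Hist1h2ao, Hist1h2ap and Hist1h2br no such word was unique. The study states that unusable reads were removed by Encode recommendations, without saying whether reads with several matches were among them. At those 4 genes the lack of a site cannot be read as a lack of the mark. The lack of a site is also hard to read at the other members below 50% unique words, such as Hist1h4m and Hist2h3c1. Of all protein-coding genes below 50%, 14.05% had a site within 1 kb, against 28.8% of those with at least 95%.

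Among the 11 members with at least 95% unique words, the Hist3 pair had a site within 1 kb (18.2%) and the other 9 did not, against 28.8% of the 17964 protein-coding genes at that level. These 9 included Hist1h1a, Hist1h1b, Hist1h1d, Hist1h1t, Hist1h2be and Hist2h4, all at 100%. For Hist1h2be the value describes its annotated TSSs inside Hist1h1e (23621078 to 23621124), far from its stem-loop at 23585531. Of the 27 members with 80 to 95% unique words 0 had a site (all genes 21.5%), of the 18 with 50 to 80% 0 had one (all genes 22.5%), and of the 10 below 50% 0 had one (all genes 14.05%). Over whole spans, 92.2% of words were unique in Hist1 C, 91.9% in Hist2, 89.8% in Hist1 D, 84.95% in Hist1 B and 68.0% in Hist1 A. The right flank of Hist2 was less unique (69.0%) than Hist2 itself and 37.2% covered. Other regions of low uniqueness had few or no sites, namely the right flank of Hist1 B (80.03% unique, 2.52% covered) and the site-free stretch with the Vmn1r genes (77.5% unique, 45.9% in repeats). The part that repeated sequence plays in the absence of sites was not tested further.

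**Figure D4:**
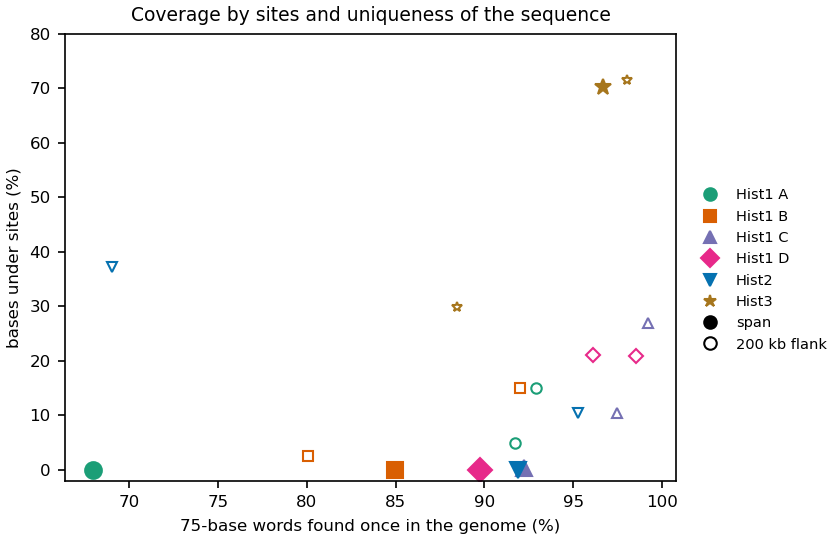
Percent of bases under sites against the percent of 75-base words that occur once in the genome, for the 6 spans (filled) and their 200-kb flanks (open). Hist1 C and Hist2 lie near 92% unique words and 0% covered, and the right flank of Hist2 lies at 69.0% and 37.2%.

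Most members had a CGI near the TSS. A CGI lay within 1 kb at 62 of 66 members (93.9%), against 58.3% of all protein-coding genes. The members without one were Hist1h1d, Hist1h1t, Hist1h2aa and Hist1h2ba. Among all protein-coding genes a site within 1 kb was about as frequent with a CGI (26.6%) as without (27.3%), while among the members with a CGI it was 2 of 62.

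The promoters of H2A and H2B genes often faced each other. In 12 places an H2A and an H2B gene were transcribed away from each other from TSSs 176 to 306 bp apart (median 259.5 bp). None of these pairs had a site within 1 kb, but all of them lay outside Hist3. No member outside Hist3 had such a site, so the result for the pairs says nothing separate about facing promoters. The pair closest to a site was Hist1h2ba and Hist1h2aa at 6806 bp. RefSeq promoters were matched for 61 of the 66 members. The letters CCAAT were present on either strand in 86.9% of them, against 37.4% of 32851 mouse promoters. They occurred in 6 of 6 H1, 18 of 18 H2A, 16 of 16 H2B and 10 of 10 H3 promoters and in 3 of 11 H4 promoters. TATAAA was present in 57.4% (all promoters 13.6%). The octamer ATTTGCAT was present in 21.3% (all promoters 1.74%), in 7 of 18 H2A and 6 of 16 H2B promoters and in none of the 27 H1, H3 and H4 promoters. None of the 3 patterns contains another. Both Hist3 genes, which had a site, held CCAAT, as did Hist1h1e and Hist1h2ba, which had none.

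The 3′ stem-loop of the histone mRNA shows what these genes share beyond their names. A pattern of 16 bases, in which the middle of both stem arms and the last base of the loop were free and the rest fixed as in the forms shown here, occurred within 150 bp after the stop codon in 62 of 66 members (93.9%), at 22 to 59 bp (median 31 bp), and in 0.306% of 21580 protein-coding genes with an annotated stop codon. Besides the members it was found in H2afx, H2bfm, Hist4h4 and Lrrc75b. It was not found in Hist2h2be, Hist1h2an, Hist1h3g and Hist1h4a. The 6 forms are given as DNA with the loop in capitals and the stem in lower case.
Stem-loop of 41 members: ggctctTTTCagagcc
Stem-loop of 9 members: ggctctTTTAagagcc
Stem-loop of 7 members: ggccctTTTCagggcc
Stem-loop of 2 members: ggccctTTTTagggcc
Stem-loop of another 2 members: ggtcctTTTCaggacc
Stem-loop of 1 member: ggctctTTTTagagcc

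The first form was found in H1, H2A, H2B and H3 genes, both Hist3 genes included, and in no H4 gene. The forms with ggccct or ggtcct as the left arm were found in H4 genes alone among the members.

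Histone genes outside the clusters were read from a list of replication-independent forms, most of which are expressed throughout the cell cycle or in germ cells. Of 18 such genes found in the annotation, 1 (5.56%) had a site within 1 kb (all genes 26.9%). This was H1fx, a linker histone gene, with a site of 594 bp at 105 bp. In a 3-kb window it was 5 of 18 (27.8%), against 33.5% of all genes. The genes for H3.3, the replacement form of H3, had none (H3f3a 10796 bp, H3f3b 23947 bp), nor had the gene for the centromeric H3 form Cenpa (12498 bp), H2afz (82863 bp) or H2afx (28600 bp). Between 1 and 3 kb lay H2afv (1656 bp), H1f0 (2026 bp), H2afy (2156 bp) and H1fnt (2323 bp). Hist4h4, which has the stem-loop of the clustered genes, had its nearest site 2630 bp from its TSS, a site of 2237 bp that overlapped the 3′ end of the gene.

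Genes whose products switch on, process or escort the clustered histones were read as a second list of 25. A site lay within 1 kb of 3 of them (12%; all genes 26.9%). E2f2, an activator of S-phase genes, had a site of 361 bp at 447 bp. Sympk, a scaffold of the 3′ cleavage machinery, had one of 5254 bp at 360 bp, and Coil, the Cajal body protein coilin, one of 372 bp at 119 bp. With sites under 500 bp left out only Sympk remained (4%; all genes 24.9%). Npat, the coactivator of the clustered genes, was 134711 bp from a site, Hinfp, which acts at H4 genes, 8367 bp, and Slbp 29782 bp. Casp8ap2 (3378 bp) and the chaperone gene Asf1b (2052 bp) lay nearer, without a site in the 1-kb window.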

How the data were processed

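H3K27me3 ChIP-seq libraries were sequenced as single-end reads of 75 bases. The study planned a minimum read number for each library and scaled ChIP-seq samples to the lowest coverage of the experiment, and the depth reached by each library cannot be read from the list. The authors used Trim Galore for trimming, BWA for alignment to mm10, Picard for merging replicates and MACS2 for broad peaks. Versions, cutoffs and the rule that joined peaks of different samples are not given in the sources used here. The deposited list holds the chromosome, start and end of each site, the unit being base positions, with no count, signal or score and with 0 columns for a single sample. Starts were read as counted from 0, since the smallest difference of end and start was then a width of 200 bp.

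Genes and TSSs came from GENCODE M21 and sequence from GRCm38.p6, over 20 chromosomes, and chromosome Y was not analysed. A gene was scored when at least 1 base of a site lay within 1 kb of any annotated TSS. CGIs were maximal-scoring segments of the repeat-masked sequence in which a CpG scored 17 and other bases -1, with a minimum of 200 bp, 50% GC and an observed/expected ratio of 0.6. In the first version a masked base ended a segment. This was changed to scoring it like any other base after the first counts had been seen, and both versions are given in the closing section. Unique words were counted on both strands. Steps were run with Python 3.11.15, NumPy 2.4.6, SciPy 1.17.1, numba 0.67.0 and matplotlib 3.10.9, and were tested on simulated data.

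Named genes were members with a site within 1 kb or 5 kb, the testis and H1 genes, listed genes with a site within 1 kb, and genes at the 10 widest sites of the spans and flanks. One gene that this rule names is not reported here. Other names were chosen after their values were seen. Members, lists and descriptions were chosen with earlier results of these data known. Alternatives were other windows, site widths, merging distances and span definitions. No test was run, because the list has no replicates and genes of a cluster are not independent.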

Additional observations from a re-analysis of the deposited data

How the results depend on the processing

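The count of 2 members with a site within 1 kb was also found with a window of 0.5 kb (all genes 24.7%) or 2 kb (30.5%), with TSSs of protein-coding transcripts only (25.8%), and for sites of at least 500 bp (24.9%) or 1000 bp (22.4%). It became 3 (4.55%) at 3 kb, against 33.5% of all genes, and 0 when a site was scored by its centre, against 18.5%. Keeping only sites of 500 bp or wider, or of 1000 bp or wider, gave a covered share of the spans of 1.32%. Joining sites across distances under 3000 bp gave 2.04%. It was 9.88% with spans split at 300 kb, which joins Hist1 A with Hist1 B and Hist1 C with Hist1 D. Sites in gaps numbered 1 for sites of at least 500 or 1000 bp and with spans split at 50 kb, and 57 with spans split at 300 kb. With sites of 1000 bp or wider the median distance became 79722 bp. Replication-independent genes with a site numbered 2 (11.1%) at 2 kb, 5 (27.8%) at 3 kb and 0 for sites of at least 1000 bp. Supply genes numbered 1 (4%) for sites of at least 500 and of at least 1000 bp, and neighbouring genes 16 (30.2%) for sites of at least 1000 bp, to be read against the same shares of all genes. Alternatives chosen after seeing the data gave 0 of 64 members without chromosome 11. Over the 11 members with at least 95% unique words they gave 2 with a site (18.2%), against 28.8% of all genes at that level, and a median distance of 17192 bp.

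With masked bases ending a segment, the version run first, 61 of 66 members (92.4%) and 56% of all protein-coding genes had a CGI, and in the unmasked sequence 62 (93.9%) and 59.2%. A site within 1 kb was then present at 26.3% and 26.6% of all genes with a CGI. No paired analysis was possible because the list holds no value for a single library. The list does not give the reads behind a site, so a region without one may hold a mark too weak to be called.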
